A study of Mus musculus with 3 samples.

Results

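The NDRG family was described in J774A.1 cells, which are macrophage-like cells of the mouse, that had been starved in a salt solution with or without an inhibitor of p38 kinases. Its members are Ndrg1, Ndrg2, Ndrg3 and Ndrg4, and they were taken by name: every probe whose gene name in the 3 scanner files was one of these counts as a member. This gave 7 probes for 4 genes, among 41125 probes for 27572 genes in all. The family was chosen on the measured log2 ratios of Ndrg1 between these media, so that its levels and ratios are a description and carry no test.

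Cells were kept for 6 h in EBSS+SB202190, in EBSS or in RPMI. EBSS is Earle's Balanced Salt Solution, which holds salts and glucose and no amino acids. SB202190, a small-molecule inhibitor of p38 MAP kinases, was used at 10 µM. RPMI is a complete culture medium and was supplemented with 10% fetal bovine serum. EBSS was therefore set against a medium that differed in amino acids, serum and other ingredients at once, and these cannot be told apart. Whether cells in EBSS received the inhibitor's solvent is unknown here, and J774A.1 is a single tumour-derived line. RNA of the 3 media was compared on 3 two-colour arrays of 1 slide that closed a loop. Array 1 held EBSS in Cy3 and RPMI in Cy5, array 2 EBSS+SB202190 in Cy3 and EBSS in Cy5, and array 3 EBSS+SB202190 in Cy5 and RPMI in Cy3. Each medium was thus 1 sample, read once in each dye. No test between media was possible, and every error below is technical.

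NDRG stands for N-myc downstream-regulated gene, after the finding in mice that the MYC family protein N-myc represses Ndrg1. The proteins have the fold of alpha/beta hydrolases but lack the catalytic residues of these enzymes. NDRG1 is a cytoplasmic stress protein that is induced by hypoxia, by loss of iron and by stress of the endoplasmic reticulum, is phosphorylated by SGK1 and then by GSK3, and in humans is mutated in a demyelinating neuropathy. NDRG2 is known from astrocytes, heart and skeletal muscle, and NDRG4 from brain and heart. NDRG3 is expressed in many tissues, and in human cells it binds lactate and is stabilised when oxygen is low.

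The identity of the cells was checked with marker genes. All 14 macrophage markers on the arrays were well above background in all 6 channels, with summed levels of 293237 in EBSS+SB202190, 344886 in EBSS and 404771 in RPMI (normalized intensity). The brightest genes weigh most in these sums, and single markers differed. In the same order of media, Cd14 had 20331, 57568 and 72644 and Mpeg1 50419, 61935 and 78835. By contrast, Cd68 had 10580, 13551 and 10548 and Fcgr3 6173, 7726 and 5907. Of 34 markers of epithelium, glia, neurons, muscle, fibroblasts, lymphocytes and mast cells, 20 were above background in no channel and 2, Tubb3 and Tnnt2, in all 6. The 4 mast cell markers were above background nowhere, nor were 5 of 6 epithelial and 4 of 6 glial ones. Summed over each list, mast cell markers had 1521 in EBSS+SB202190, 1523 in EBSS and 1534 in RPMI, and glial markers 2354, 2361 and 2344 in the same order. As these are bulk samples, fewer cells of a type and less RNA per cell cannot be told apart.

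The genes lie on 4 chromosomes. On chromosome 15, the probe of Ndrg1 covers 66759164 to 66759223 of the minus strand, and the Ndrg2 probe lies on chromosome 14 from 50827514 to 50827573, on the minus strand (build mm8, as in the files). Ndrg3 has 3 probes on the minus strand of chromosome 2. Probe 1 lies from 156619082 to 156619141, probe 2 from 156626368 to 156626427 and probe 3 from 156631800 to 156635432. Probe 3 spans 3633 bases of genome against 60 for the other two. The files tie probes 1 and 3 to the RefSeq transcript and probe 2 to a single RIKEN cDNA. Ndrg4 has 2 probes on the plus strand of chromosome 8, from 98595895 to 98596083 and from 98603736 to 98603795, of which the first spans 189 bases. Whether the probes lie in coding sequence or in a UTR was not analysed here.

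Promoters are shown because N-myc, MYC and hypoxia-inducible factors are the best known regulators of Ndrg1, and both kinds of factor bind short sites. Windows of 300 bases around annotated starts were taken from RefSeq (GRCm38.p6) for Ndrg2 (3 windows), Ndrg3 (2) and Ndrg4 (4). Windows 2 and 3 of Ndrg2 overlap. The promoter of Ndrg1 was not analysed here, so that the search cannot bear on Ndrg1 itself. For the core of the hypoxia response element only the form ACGTG was searched, which every CACGTG also holds. On both strands, the search took CACGTG, the E-box of MYC proteins, ACGTG, and TGATGNAAN, a common form of the site of ATF4. These letters occur in 7.15%, 19.6% and 3.95% of 32851 mouse promoter windows of the same length. Of the 9 windows 1 held any of them, the second of Ndrg4 (chr8:95677513-95677812, plus strand), with CACGTG from position 213, in capitals. It is set beside the windows of Ndrg3, the second member that was above background (chr2:156992062-156992361 and chr2:156991654-156991953, minus strand), which have no match:
Ndrg4 window 2: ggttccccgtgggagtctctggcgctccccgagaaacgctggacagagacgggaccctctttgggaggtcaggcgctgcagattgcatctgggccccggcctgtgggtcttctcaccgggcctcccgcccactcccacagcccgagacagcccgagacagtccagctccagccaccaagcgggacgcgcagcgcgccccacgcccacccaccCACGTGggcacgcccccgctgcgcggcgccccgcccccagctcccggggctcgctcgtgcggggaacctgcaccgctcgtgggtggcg
Ndrg3 window 1: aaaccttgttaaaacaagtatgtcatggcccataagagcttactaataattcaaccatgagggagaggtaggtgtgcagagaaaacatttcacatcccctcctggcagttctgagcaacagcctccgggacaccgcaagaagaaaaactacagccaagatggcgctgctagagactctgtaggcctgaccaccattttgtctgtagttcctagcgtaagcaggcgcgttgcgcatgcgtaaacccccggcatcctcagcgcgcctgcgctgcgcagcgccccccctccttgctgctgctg
Ndrg3 window 2: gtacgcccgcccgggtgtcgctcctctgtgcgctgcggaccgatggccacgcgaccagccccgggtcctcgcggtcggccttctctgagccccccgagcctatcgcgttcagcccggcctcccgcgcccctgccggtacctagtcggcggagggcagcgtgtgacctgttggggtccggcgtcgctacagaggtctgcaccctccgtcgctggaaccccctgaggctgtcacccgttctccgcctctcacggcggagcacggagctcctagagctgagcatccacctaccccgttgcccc
A match of letters is no evidence of a bound site, and no match says only that these letters are not in the window. Another form of the hypoxia core, GCGTG, was not searched. Window 2 of Ndrg3 holds GCGTG, so that a lack of the core cannot be read from the search.

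Of the 4 genes, 2 were expressed above background. Ndrg1 was well above background in 6 of 6 channels and Ndrg3 in 13 of 18 over its 3 probes (6 for probe 1, 5 for probe 2 and 2 for probe 3). Ndrg2 was well above background in 0 of 6 channels and Ndrg4 in 0 of 12. The levels differed far more between media for Ndrg1 than for any other probe of the family.

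Ndrg1 reached 5265 and 5946 in EBSS+SB202190 (Cy3 and Cy5, processed intensity of the scanner software). In EBSS it reached 53563 in Cy3 and 47566 in Cy5. In RPMI it reached 1252 in Cy3 and 1788 in Cy5. The levels thus ran from EBSS over EBSS+SB202190 to RPMI in both dyes, and no channel of 1 medium overlapped one of another. On the normalized log2 scale, the 2 channels of a medium were 0.15 apart in EBSS+SB202190, 0.09 in EBSS and 0.36 in RPMI. No pixel of the spot was saturated on any array, and the pixels of a spot varied with a coefficient of variation of 6.85% to 9.93%.

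**Figure D1:**
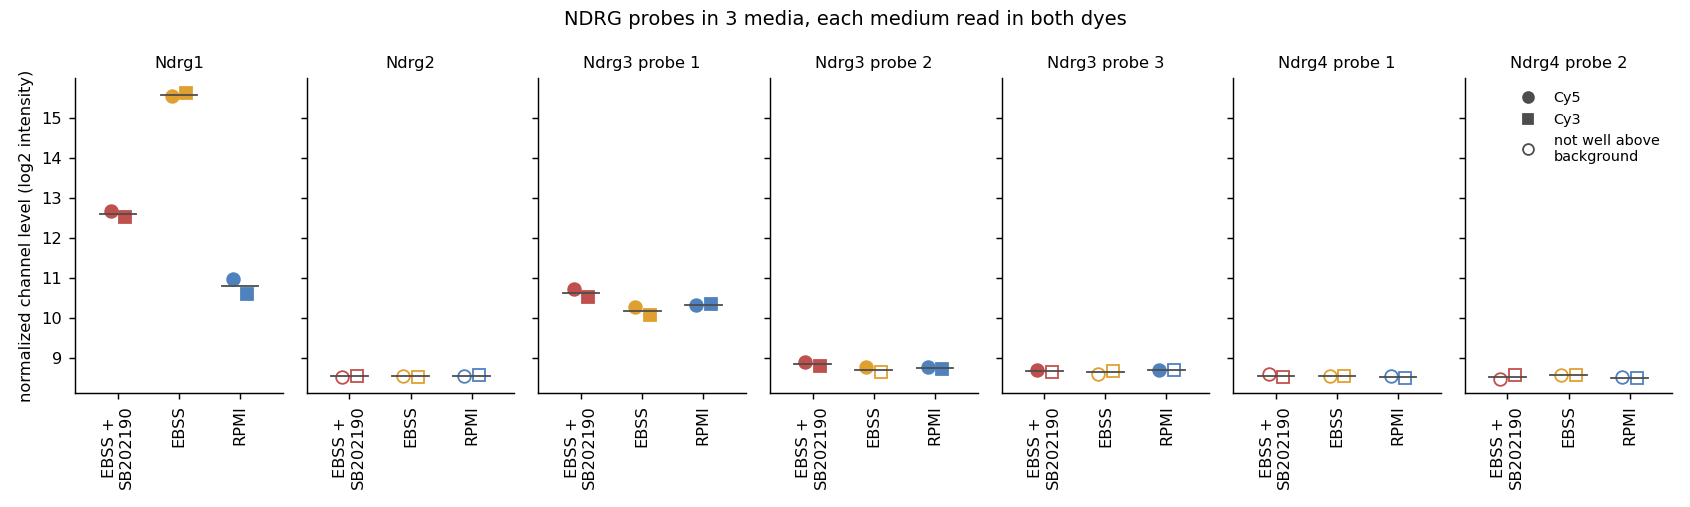
Normalized channel level (log2 intensity, y axis) of the 7 NDRG probes in EBSS+SB202190, EBSS and RPMI (x axis). Circles are Cy5, squares Cy3, open symbols channels not well above background, and lines the mean of the 2 channels. Ndrg1 stands at a mean of 12.59, 15.58 and 10.79 in the 3 media, whereas Ndrg2, Ndrg4 and probes 2 and 3 of Ndrg3 lie between 8.50 and 8.92 in every medium.

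Set against RPMI, EBSS had 27.7-fold more Ndrg1, a log2 difference of 4.79 ± 0.13 (technical SE). The array that held both media gave 4.65 and the path through the other 2 arrays 5.07. Set against EBSS, EBSS+SB202190 had a 7.32-fold lower level, at -2.87 ± 0.13 (log2; -3.01 on the shared array, -2.59 by the other path). Set against RPMI, EBSS+SB202190 still had 3.78-fold more Ndrg1, at 1.92 ± 0.13 (2.06 and 1.64). On the log2 scale, the rise over RPMI with the inhibitor was 40.0% of that in EBSS alone. This share was 44.3% on the arrays that held both media, 32.3% by the path through the other 2 arrays and 20.4% with the arrays scaled to equal spread. There was no RPMI sample with the inhibitor, so an effect of SB202190 apart from starvation cannot be told apart here. The 3 ratios share their samples pairwise, and the same EBSS sample stands behind the rise and the fall.

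The ratios of Ndrg1 around the loop, which would sum to 0 without error, summed to 0.42. Probes of like intensity had a robust SD of 0.27 for this sum, so that the paths of Ndrg1 differed by more than those of most genes, and by far less than any of its 3 ratios. With the log ratios that the scanner software had computed, the same comparisons gave 5.08, -3.003 and 2.07. The 8 alternatives to the main estimate included each path of the loop. They also held the scanner's log ratio and the authors' series table, which are nearly alike. Over them, the log2 ratio in EBSS against RPMI ranged from 4.65 to 6.01 and that in EBSS+SB202190 against EBSS from -4.16 to -2.59. Of these ends, 4.65 and -2.59 came from single paths of the main processing. For EBSS+SB202190 against RPMI the log2 ratio ranged from 1.06, when the arrays were scaled to equal spread, to 2.24.

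**Figure D2:**
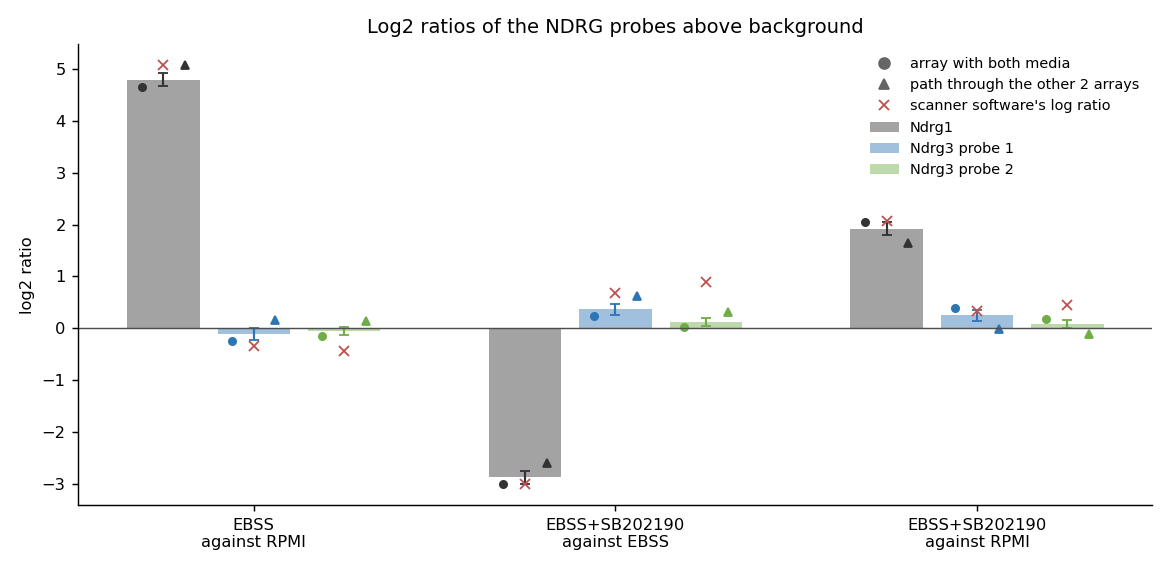
Log2 ratio (y axis) of Ndrg1 and of probes 1 and 2 of Ndrg3 in the 3 comparisons of media (x axis). Bars are estimates over the loop with their technical SE, circles the array that held both media, triangles the path through the other 2 arrays, and crosses the scanner software's log ratio. Ndrg1 has 4.79, -2.87 and 1.92, whereas both Ndrg3 probes stay between -0.11 and 0.36 over the loop.

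Counted as higher or lower were genes with a log2 ratio of 1 or more in size that had the same sign, and 0.5 or more, on each path. Of the 2 members measured, Ndrg1 and Ndrg3, Ndrg1 was counted in all 3 comparisons and Ndrg3 in none. Over all measured genes this rule counted 7.3% in EBSS against RPMI (4.48% higher, 2.82% lower), 3.81% in EBSS+SB202190 against EBSS (0.889% higher, 2.93% lower) and 3.89% in EBSS+SB202190 against RPMI (1.47% higher, 2.43% lower). As the family was chosen for these values, nothing is read from the members' share. Ndrg1 had the highest ratio of 11874 measured genes in EBSS against RPMI, and the next was 3.35, of BC071254. It had the 4th lowest ratio of 11692 genes in EBSS+SB202190 against EBSS, after Rgs1, BC071254 and Dusp1, and the 23rd highest of 11863 in EBSS+SB202190 against RPMI.

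**Figure D3:**
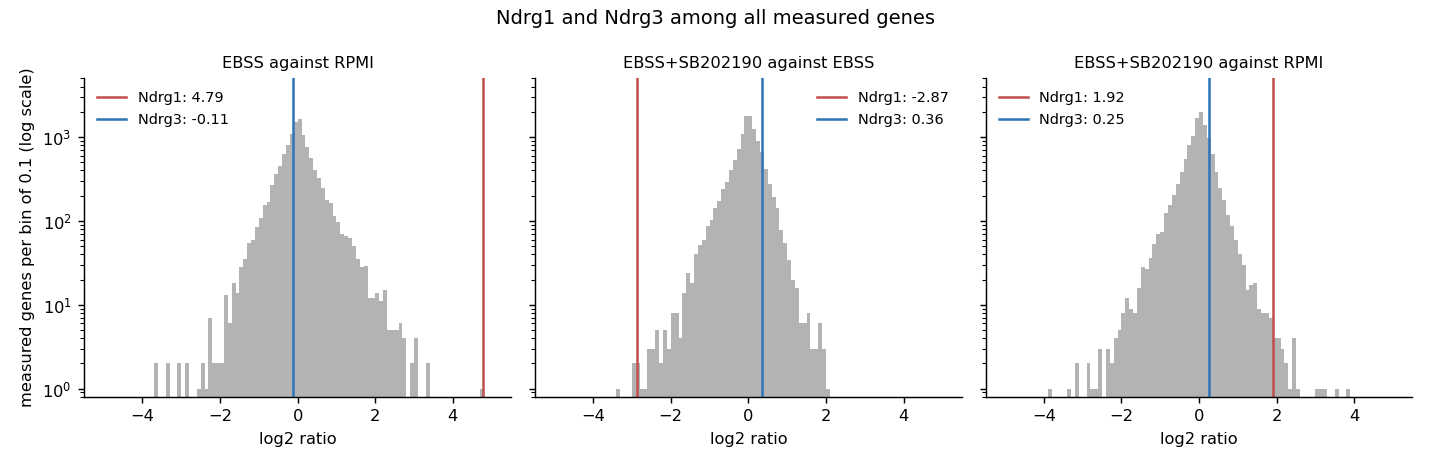
Number of measured genes per bin of 0.1 (y axis, log scale) by log2 ratio (x axis) in the 3 comparisons of media. Red lines mark Ndrg1 and blue lines Ndrg3. Ndrg1 stands at the upper edge at 4.79, close to the lower edge at -2.87 and in the upper tail at 1.92, where the highest gene has 3.82, and Ndrg3 stands within its body at -0.11, 0.36 and 0.25.

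The genes nearest to Ndrg1 in their ratios were looked up. Likeness was measured as the Euclidean distance between the pairs of log2 ratios in EBSS against RPMI and in EBSS+SB202190 against EBSS, over 11532 genes measured in both comparisons and 3 media. Ndrg1 had the highest ratio in EBSS against RPMI, at 4.79, and the next gene had 3.35. No gene could therefore lie within a distance of 1 of it, and the distances reflect size as well as pattern. The nearest were BC071254 (distance 1.45, with 3.35 in EBSS against RPMI and -2.999 in EBSS+SB202190 against EBSS) and 9530028C05 (1.89). They were followed by Casp4 (1.92), which encodes an inflammatory caspase, Ifi207 (2.11), an interferon-inducible gene, and Sqstm1 (2.19), which encodes an autophagy receptor. All 5 had smaller ratios than Ndrg1 in EBSS against RPMI, from 2.68 to 3.35, as every other measured gene did.

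Ndrg3 was expressed in all 3 media and varied little. Its probe 1 had 1341 and 1399 in EBSS+SB202190 (Cy3 and Cy5, processed intensity), 880 and 881 in EBSS, and 1057 and 1160 in RPMI. The order was EBSS+SB202190, RPMI and EBSS, and the channels of different media did not overlap. The log2 ratio over the loop was -0.11 ± 0.11 in EBSS against RPMI, where the shared array gave -0.25 and the other path 0.15. These paths differed in sign, so that no direction can be given. The log2 ratio in EBSS+SB202190 against EBSS was 0.36 ± 0.11 (0.23 and 0.63), and in EBSS+SB202190 against RPMI 0.25 ± 0.11, where the paths again differed in sign (0.38 and -0.01). The paths of probe 1 differed by 0.40, against a median of 0.16 to 0.17 over all measured genes. This difference is the sum around the loop, so that it is 1 observation and has the same size in each comparison. With median centring in place of loess the ratio in EBSS+SB202190 against EBSS was -0.13, whereas all measured genes then had a median of -0.45. In EBSS against RPMI 70.7% of measured genes had a larger ratio in size than Ndrg3, and 28.7% and 40.1% did in the other 2 comparisons.

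Probe 2 of Ndrg3, in the same gene 7226 bases from probe 1, was dim. It had 96.1 and 108 in EBSS+SB202190 (Cy3 and Cy5), 55.4 and 67.3 in EBSS, and 60.9 and 98.1 in RPMI, and was not well above background in Cy3 of EBSS. The channels of RPMI overlapped those of both other media. Its log2 ratios were -0.04 ± 0.08 in EBSS against RPMI, 0.12 ± 0.08 in EBSS+SB202190 against EBSS and 0.08 ± 0.08 in EBSS+SB202190 against RPMI. They were -0.44, 0.89 and 0.45 when taken from the scanner's processed intensities. The paths of probe 2 differed in sign in EBSS against RPMI (-0.14 and 0.15) and in EBSS+SB202190 against RPMI (0.17 and -0.11). No direction can be given for these comparisons from probe 2.

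Probe 3 of Ndrg3 had 49.0 and 40.8 in EBSS+SB202190 (Cy3 and Cy5), 41.3 and 21.6 in EBSS, and 45.7 and 43.3 in RPMI. In EBSS it was not well above background on either array, and in the other media on 1 of 2 arrays each, in Cy5. Its mean levels were 8.68 in EBSS+SB202190, 8.65 in EBSS and 8.71 in RPMI (log2). No fold against EBSS is given, and the log2 ratio of 0.01 ± 0.06 between EBSS+SB202190 and RPMI rests on signals well above background on only 1 of 2 arrays per medium, so that the probe does not count as measured there.

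Among the nearest genes to Ndrg3 in pattern were Vdr (distance 0.01), which encodes the vitamin D receptor, NAP027859-1, R3hdm1 and Ifngr1, which encodes a chain of the interferon gamma receptor. They single nothing out, since 9554 of the 11532 genes lay within a distance of 1 of Ndrg3.

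Ndrg2 and Ndrg4 were not detectable on these arrays. The raw signal of Ndrg2 was 227 and 119 in EBSS+SB202190 (Cy3 and Cy5), 209 and 112 in EBSS, and 231 and 119 in RPMI. The raw signal of probe 1 of Ndrg4 was 222 and 117 in EBSS+SB202190, 214 and 116 in EBSS, and 214 and 111 in RPMI, and that of probe 2 was 240 and 102, 219 and 123, and 206 and 103. Spots without a mouse target were as bright: the 153 negative control spots of an array had medians of 218 to 228 in Cy3 and 106 to 108 in Cy5. All 6 values of Ndrg2 and 11 of 12 of Ndrg4 lay within the middle 95% of the negative controls of their channel, and the last, in Cy3 of RPMI, lay below it. All 18 values of Ndrg3 and all 6 of Ndrg1 lay above that range. No ratio is given for Ndrg2 and Ndrg4, as neither was well above background in any medium.

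**Figure D4:**
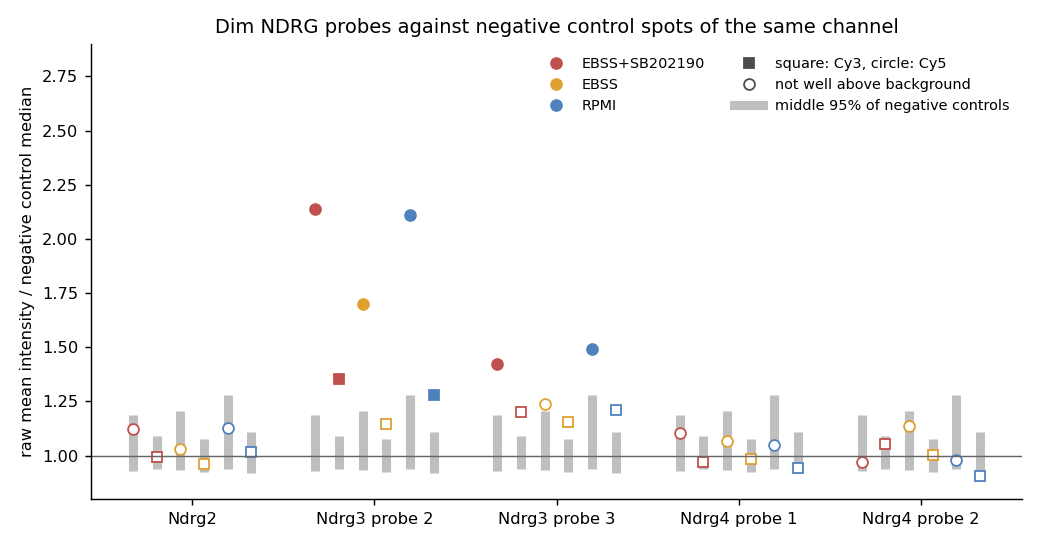
Raw signal of the dim NDRG probes over the median of the negative control spots in the same channel (y axis), by probe (x axis). Colours give the medium, circles Cy5 and squares Cy3, open symbols channels not well above background, and grey bars the middle 95% of 153 negative control spots. Ndrg2 and Ndrg4 lie between 0.907 and 1.14, whereas probes 2 and 3 of Ndrg3 lie between 1.15 and 2.14 and above the grey bars.

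Genes that act on NDRG1 or share its settings were grouped into 6 lists. For each, the members counted as higher or lower are given beside the median log2 ratio. Over all measured genes, 4.48% were higher and 2.82% lower in EBSS against RPMI. The shares were 0.889% and 2.93% in EBSS+SB202190 against EBSS, and 1.47% and 2.43% in EBSS+SB202190 against RPMI. With median centring in EBSS against RPMI, 4252 of the 11874 measured genes were higher and 23 lower. All measured genes had a median of 0.00 in EBSS against RPMI, 0.00 in EBSS+SB202190 against EBSS and 0.01 in EBSS+SB202190 against RPMI. With median centring in place of loess these were 0.81, -0.45 and 0.34. Ratios near 0 can change sign with that shift, and in EBSS against RPMI those of Sgk1 (0.40), Myc (0.26), Slc2a1 (0.82) and Ldha (0.89) were then positive.

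The list of kinases and complexes that phosphorylate NDRG1 or control its kinases held SGK and GSK3 kinases and mTORC2. Of its 12 measured members in EBSS against RPMI 2 were higher and 0 lower, around a median of 0.13, or 5 and 0 with median centring (median 0.93). The higher ones were Tsc22d3 (1.67, with 1.74 and 0.77 for its other probes), a glucocorticoid-induced leucine zipper protein, and Gsk3b (1.09, with 0.28 for its other probe), which adds phosphates to NDRG1 after SGK1. Sgk1 had -0.61 ± 0.12 and Sgk3 -0.65. Sgk1, the main NDRG1 kinase, was the 1 of 13 counted in EBSS+SB202190 against EBSS, at -1.26 ± 0.12 (median -0.03), and Gsk3b had -0.69 (other probe -0.08) and Tsc22d3 0.55 (other probes 0.57 and 0.17). Sgk1 was also lower in EBSS+SB202190 against RPMI (-1.87), where Tsc22d3 (2.22) and Mlst8 (1.07), a subunit of mTORC2, were higher. A second probe of Sgk1 was not measured in any comparison.

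The list of transcription factors known to act on NDRG1 had 14 measured members in EBSS against RPMI, of which 2 were higher and 1 lower (median 0.31), or 9 and 1 with median centring (median 1.28). Atf3 (2.18 ± 0.18) and Atf4 (1.64 ± 0.18), factors of the stress response, were higher, and Fos (-2.27 ± 0.11) was lower. The hypoxia-inducible factors had 0.27 ± 0.11 (Hif1a) and -0.03 ± 0.07 (Epas1), and their mRNA levels do not show their protein. Myc had -0.50 (other probes -0.47 and -0.15), Trp53, the p53 gene, 0.30 and Egr1 0.86, and Mycn, the gene of N-myc, was not measured. Egr1 had 1.64 with negative control spots as background and 2.12 from the scanner's processed intensities. Of 13 members 4 were lower and 0 higher in EBSS+SB202190 against EBSS (median -0.51). These were Junb (-1.68), Egr1 (-1.21), Myc (-1.21, with -0.97 and -0.31 for its other probes) and Sp1 (-1.03). With negative control spots as background, Egr1 had -2.73 and Myc -2.24 in that comparison. From the scanner's processed intensities they had -4.01 and -2.96. Atf3 (1.25) was higher in EBSS+SB202190 against RPMI, and Fos (-2.78), Junb (-2.16) and Myc (-1.71) were lower, around a median of -0.04 for 14.

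In the list of hypoxia-inducible genes and oxygen sensors, in which NDRG1 is often counted, 6 of 23 were higher in EBSS against RPMI and 0 lower (median 0.20), or 12 and 0 with median centring (median 1.15). Ddit4, which encodes an inhibitor of mTORC1, had 1.76 ± 0.12, Hk2, a hexokinase, 1.32 ± 0.13, and Bhlhe40, a transcriptional repressor, 1.30 ± 0.11. Kdm3a (1.29, with 0.37 for its other probe), Ero1a (1.26, with 0.81 for its other probe) and Vhl (1.11), part of the ligase that degrades hypoxia-inducible factors, completed the count. Other targets of hypoxia-inducible factors were spread on both sides of 0, with 0.90 for Bnip3l, -0.42 for Slc2a1, a glucose transporter, and -0.58 for Ldha. Vegfa had 0.41 (other probes 0.09 and 0.10), or 1.14 with negative control spots as background and 1.97 from the scanner's processed intensities. Ddit4 (-1.22) and Bhlhe40 (-1.03) were lower in EBSS+SB202190 against EBSS and 0 higher (median -0.05), and Ero1a had -0.996, just short of the size required. Pfkfb3 (1.27, with 0.27 for its other probe), a regulator of glycolysis, and Vhl (1.03) were higher in EBSS+SB202190 against RPMI and 0 lower (median 0.25).

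Of 10 measured partners and downstream genes of NDRG proteins 2 were higher in EBSS against RPMI, Cd82 (1.15 ± 0.13), which encodes a tetraspanin and metastasis suppressor, and Gsk3b, which also stands in the kinase list. None was lower, and the median was 0.04. With median centring 6 were higher and 0 lower (median 1.26). None was counted in EBSS+SB202190 against EBSS (median -0.03), and the largest ratio in size was that of Ctnnb1, the beta-catenin gene, at -0.83 (other probes -0.77 and -0.35). Ppp2ca, a phosphatase catalytic subunit, had 0.25 in EBSS against RPMI and -0.48 in EBSS+SB202190 against EBSS. None was counted in EBSS+SB202190 against RPMI either (median 0.13). Cdh1, Bves and Mgmt were not measured.

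Other proteins with the alpha/beta hydrolase fold, the ABHD proteins, stayed close to all genes, with medians of 0.05, 0.08 and 0.08 over 16 measured members in the 3 comparisons. Abhd10, a mitochondrial thioesterase, was the only one counted. It was higher in EBSS against RPMI (1.65 ± 0.11) and lower in EBSS+SB202190 against EBSS (-1.92 ± 0.11), and had -0.27 in EBSS+SB202190 against RPMI. Its other probe was not measured in any comparison. With median centring 6 of the 16 were higher in EBSS against RPMI and 0 lower (median 0.80). The next in size were Abhd17a (-0.54) and Abhd15 (-0.48) in EBSS against RPMI, and Abhd17a (0.57) and Abhd8 (0.47) in EBSS+SB202190 against EBSS. Abhd15 depended on the processing. In EBSS against RPMI it had -1.75 with negative control spots as background and -4.29 from the scanner's processed intensities. In EBSS+SB202190 against EBSS these gave 1.38 and 3.97, against 0.21 in the main processing.

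Genes of stress sensing and of the amino acid response, already known to rise in these samples, give a scale on which to read Ndrg1. In EBSS against RPMI 8 of 9 were higher, around a median of 2.60, with Ddit3 (3.32 ± 0.12), the gene of the stress factor CHOP, Trib3 (3.08 ± 0.18; 2.66 for its other probe), a pseudokinase, and Ppp1r15a (2.78), a phosphatase subunit. Ndrg1, at 4.79, lay above the highest of them. Of the 9, 4 were lower in EBSS+SB202190 against EBSS (median -0.94), namely Atf5 (-1.89), Gdf15 (-1.86), Chac1 (-1.42) and Nupr1 (-1.36), and 0 higher. With the arrays scaled to equal spread 8 were lower (median -1.49), as were 619 of all 11692 measured genes. Ndrg1, at -2.87, lay below the lowest. Ddit3 had -0.16 in that comparison. Against RPMI, 5 of 9 were higher in EBSS+SB202190 (median 1.35), with Ddit3 at 3.16, Trib3 at 2.14 and Ppp1r15a at 2.04, against 1.92 for Ndrg1.

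**Figure D5:**
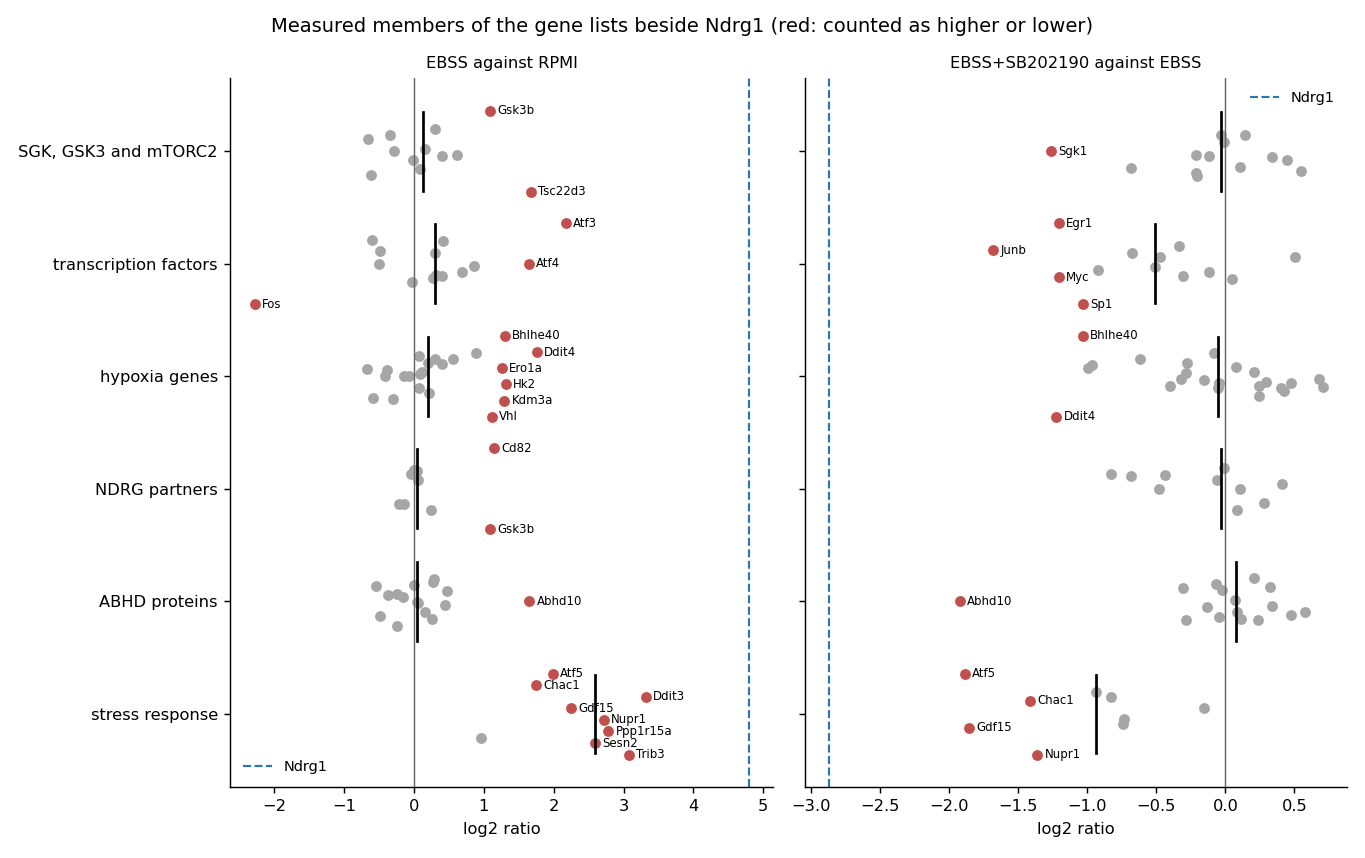
Log2 ratio (x axis) of the measured members of 6 gene lists (y axis) in EBSS against RPMI and in EBSS+SB202190 against EBSS. Each point is a gene, red and named where it was counted as higher or lower, black bars are list medians, and the dashed line is Ndrg1. The stress response list has medians of 2.60 and -0.94, the other lists lie between 0.04 and 0.31 and between -0.51 and 0.08, and Ndrg1 lies beyond every gene of the lists in both comparisons. The vertical place of a point within a list has no meaning.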

How the data were processed

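Gene expression was read on 3 two-colour Agilent 4x44K arrays, scanned and read in Agilent Feature Extraction (version 9.5.3.1), as the file headers record. Media follow the source names in the labels, since the wording of the design text leaves the base medium unclear. The deposited files hold raw intensities with local background, and processed intensities that the software had background-subtracted, spatially detrended and dye-normalized, per the file headers. Log10 ratios, also deposited, are Cy5 over Cy3 of the processed intensities. The authors' deposited series table holds log2 ratios of the same intensities without centring (medians -0.0854, -0.0766 and -0.166), as tested against the scanner values. Deposited marks of other kinds give spots that are outliers, controls, saturated or above background.

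Here raw intensities were corrected with normexp (offset 50) and loess in limma 3.58.1 (R 4.3.3), with control spots at weight 0. Control spots (1639 of 45018 per array) and 136 to 178 outlier spots per array were left out, which removed 49 of 41174 probes. No spot was saturated, and 40.1% to 49.9% of spots were well above background. Channel levels were taken after loess and Aquantile. Ratios were fitted by least squares to the loop, and their SE came from the sum around the loop in 30 intensity bins (median SE 0.11, SD of the sum 0.283). The number of arrays limits this precision. A probe was measured in a comparison when 1 or both of the media had it well above background on each of their arrays. A gene stands as its probe of highest mean intensity, and values of other probes are given for most named genes where they were measured. Steps in Python 3.11.15 used numpy 2.4.6, pandas 2.3.3 and matplotlib 3.10.9, and the loop fit was tested on simulated data. Symbols were updated through RefSeq names, and 8063 probes kept the name in the files.

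The members and lists were chosen with earlier results of these data known. Named were all members, in each list the 3 largest ratios in size in EBSS against RPMI and in EBSS+SB202190 against EBSS, Sgk1, Gsk3b, Hif1a, Epas1, Myc, Mycn, Trp53, Egr1 and Vegfa, and the 5 genes nearest to each measured member. Further counted genes were named after their values were seen, and 1 gene that the rule gives is not reported here.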

Additional observations from a re-analysis of the deposited data

How the results depend on the processing

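With 1 sample per medium there was no test, and whether the channels of a medium share 1 RNA extract is unknown here. No paired analysis was possible because each medium has 1 sample. Negative control spots had medians of 218 to 228 in Cy3 and 106 to 108 in Cy5, above the local background of 51.5 to 65.0 and 61.0 to 76.0 at the NDRG spots. The cause of the shifts below was not tested.

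All 3 log2 ratios of Ndrg1 kept their sign in 8 of 8 alternatives. Ndrg1 was chosen on these ratios, and the rule that counted it already demanded the same sign on both paths. The scanner's log ratio and the authors' series table hold nearly the same values and are no separate alternatives. The kept sign therefore says little. For EBSS against RPMI (4.79) the scanner's log ratio and the authors' series table gave 5.08, median centring 6.01, equal spread between arrays 5.22, negative control spots as background (chosen after the data were seen) 5.04 and the path through the other 2 arrays 5.07. For EBSS+SB202190 against EBSS (-2.87) median centring gave -3.77, equal spread -4.16 and the path through the other arrays -2.59. For EBSS+SB202190 against RPMI (1.92) these gave 2.24, 1.06 and 1.64.

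Ndrg3 probe 1 had -0.33 with the scanner's ratio or the series table, 0.75 with median centring and 0.15 by the other path in EBSS against RPMI. In EBSS+SB202190 against EBSS these gave 0.67, -0.13 and 0.63, and in EBSS+SB202190 against RPMI median centring gave 0.62 and the other path -0.015. Probe 2 had -0.44 (scanner's ratio or series table), 0.12 (median centring), -0.22 (negative controls) and 0.15 (other path) in EBSS against RPMI. It had 0.89 (scanner's ratio or series table), 0.38 (negative controls) and 0.31 (other path) in EBSS+SB202190 against EBSS, and 0.45 (scanner's ratio or series table) and -0.11 (other path) in EBSS+SB202190 against RPMI. Probe 3 had 0.26 in EBSS+SB202190 against RPMI with the scanner's ratio or the series table.

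Counts of genes moved more. In EBSS against RPMI (867, of them 532 higher) they were 2056 with the scanner's ratio or the series table (962 higher, 1094 lower), 4275 with median centring (4252 higher, 23 lower), 1449 with negative controls (757 higher) and 2334 with a smaller size demanded. In EBSS+SB202190 against EBSS (446, of them 104 higher) they were 1554 (782 higher, 772 lower), 787 (18 higher, 769 lower), 958 (352 higher, 606 lower) and 1638 (602 higher, 1036 lower) in the same order, 878 with equal spread, and by the other path 203 were higher and 402 lower. In EBSS+SB202190 against RPMI (462, of them 174 higher) they were 1248, 242 (152 higher, 90 lower), 779 and 1499, and 242 with equal spread (84 higher). The 48 list values counted in the 3 comparisons include only genes of 1 sign on both paths, so that their sign says little. Of them 44 were still counted with equal spread and 45 with median centring, and all 48 in the other 4 settings tried for lists; the lost ones were all in EBSS+SB202190 against RPMI.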

Other observations

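Genes beside the NDRG genes on the chromosomes were looked up by their order in RefSeq. Next to Ndrg1, St3gal1, which encodes a sialyltransferase, had log2 ratios of -0.25 ± 0.11 in EBSS against RPMI and 0.10 ± 0.11 in EBSS+SB202190 against EBSS, and Sla, an adaptor protein of receptor signalling, had -0.25 ± 0.11 and -0.73 ± 0.11. Neither was counted as higher or lower, and Ccn4 and Zfat were not measured in any comparison. Beside Ndrg3, Soga1 was counted as lower in EBSS against RPMI (-1.91 ± 0.11) and in EBSS+SB202190 against RPMI (-1.95 ± 0.11), whereas Dsn1 and Rab5if were not counted in any comparison. Beside Ndrg4, the adjacent genes Gins3 and Setd6 were measured and not counted (-0.03 and 0.34 in EBSS against RPMI), whereas Ndrg4 itself was not above background. Beside Ndrg2, Mettl17 and Slc39a2 had 0.07 and -0.03 in EBSS against RPMI.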
